A study of Homo sapiens with 8 samples.

Results

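NEUROG3 and the genes that act with it or after it when progenitor cells become islet endocrine cells were followed through 3 knockouts and a transduction experiment in human islet-like cells. The 10 genes are NEUROG3, NEUROD1, NEUROD4, NHLH1, HES6, PAX4, INSM1, RFX6, SOX4 and ST18. They were taken by name from a table of estimated gene counts that holds 38592 genes, with the 4 sequencing lanes of each library summed. All 10 were among the 22184 genes that passed a filter on low counts. NEUROG3 was the member that differed most often: it was called higher in 7 of 14 comparisons between groups and lower in 0 of 14. These comparisons share groups, and those between knockouts were written with the group of higher NEUROG3 first. Its calls in the ISL1 knockout against wild type were each lost without any 1 of the libraries compared. Of all tested genes, 0.0361% to 14.4% were called over the 14 comparisons. Among control-transduced cells the NEUROG3 level in the PAX6 knockout was 6.86-fold that in wild type.

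Neurogenin 3 is a basic helix-loop-helix (bHLH) transcription factor that appears for a short time in endocrine progenitors of the developing pancreas and commits them to the islet lineage. Like its relatives NEUROD1, NEUROD4 and NHLH1 it binds DNA at the E-box, the sequence CANNTG, as a dimer with an E protein. ID proteins hold E proteins away from DNA, and repressors of the Notch pathway such as HES1 keep NEUROG3 off in cells that remain progenitors. Downstream of it, PAX4 favours beta cells over alpha cells, INSM1 is a zinc finger repressor of endocrine and neuroendocrine cells, RFX6 is a winged-helix factor needed for islet cells, SOX4 is an HMG-box factor of progenitors and differentiating cells, and ST18 is a zinc finger factor of the MYT family. HES6 differs from the Notch repressors in that it counters HES1.

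H1, an established line of human embryonic stem cells, was the parent of all cells, which were differentiated towards pancreatic islets. They carried a knockout (KO) of PAX6, ISL1 or PDX1, each a homeodomain factor of the developing islet, or were wild type (WT). Every group was transduced on day 11 and harvested on day 18: the ISL1 OE groups received a vector with ISL1, an internal ribosome entry site and blue fluorescent protein (BFP), and the control groups received BFP alone. There were 3 libraries each of PAX6 KO ISL1 OE, PAX6 KO BFP, ISL1 KO ISL1 OE, ISL1 KO BFP and PDX1 KO BFP cells, and 2 each of PDX1 KO ISL1 OE, WT ISL1 OE and WT BFP cells. The design text calls the replicates biological. How many clones stand behind each knockout, and which promoter drives the vector, are not given in the sources used here. Because these are bulk samples, fewer cells of a type and less RNA per cell cannot be told apart.

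Library totals lay between 40959467 and 66818614 estimated counts. Levels below are in CPM, the read counts of a gene scaled to a common library size (here after TMM scaling), and fold changes are on the log2 scale. ISL1 RNA lay between 64.7 and 72.0 CPM in ISL1 KO BFP libraries and between 285 and 484 CPM in WT BFP libraries. PAX6 RNA spanned 98.8 to 159 CPM in PAX6 KO BFP cells and 144 to 235 CPM in WT BFP cells, and PDX1 RNA 93.1 to 105 CPM in PDX1 KO BFP cells and 74.0 to 95 CPM in WT BFP cells, so the RNA of the targeted gene did not separate these genotypes from WT. ISL1 RNA did not mark the vector either: it had 326 and 313 CPM in WT ISL1 OE libraries, inside the range of WT BFP libraries, and the vector arms overlapped in each knockout too. The cells carried general endocrine transcripts (CHGA, CHGB, SCG2, SCG3, SCGN and PCSK1N summed to 10253 to 45800 CPM), while POU5F1, NANOG and LIN28A together reached at most 18.9 CPM. Replicate 3 of PAX6 KO ISL1 OE and replicate 4 of PDX1 KO ISL1 OE stood apart from their groups: the lowest correlation between libraries of a group was 0.923 and 0.895 there, and at least 0.978 in each other group. Some of the member results that rest on them are given with and without them. Results for the other gene lists rest on fits of all libraries.

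The start regions of the members show where E-boxes, the sites read by the bHLH factors of the cascade, lie in them. RefSeq gives a window from 250 bases before to 50 bases after the start for 7 of the 10 genes, on GRCh38.p14. The sequences below are those of 5 members whose RNA was higher in PAX6 KO than in WT cells and of NEUROD4, whose RNA was lower in the ISL1 OE arm. Each is written 5′ to 3′ on the gene's own strand, with every match to CANNTG in capitals.
NEUROG3 (chr10:69573373-69573672, minus strand): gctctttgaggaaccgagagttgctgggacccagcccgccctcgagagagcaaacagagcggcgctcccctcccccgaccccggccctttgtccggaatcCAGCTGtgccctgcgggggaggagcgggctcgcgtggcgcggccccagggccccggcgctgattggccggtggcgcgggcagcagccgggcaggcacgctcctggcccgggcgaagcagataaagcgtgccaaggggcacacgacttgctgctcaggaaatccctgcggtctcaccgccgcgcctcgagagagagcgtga
HES6 (chr2:238239989-238240288, minus strand): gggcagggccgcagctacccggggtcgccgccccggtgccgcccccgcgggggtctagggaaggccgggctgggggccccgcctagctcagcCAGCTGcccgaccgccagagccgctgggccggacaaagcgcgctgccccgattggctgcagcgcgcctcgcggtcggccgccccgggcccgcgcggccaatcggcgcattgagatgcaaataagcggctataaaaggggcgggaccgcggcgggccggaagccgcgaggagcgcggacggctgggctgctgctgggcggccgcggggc
SOX4 (chr6:21593501-21593800, plus strand): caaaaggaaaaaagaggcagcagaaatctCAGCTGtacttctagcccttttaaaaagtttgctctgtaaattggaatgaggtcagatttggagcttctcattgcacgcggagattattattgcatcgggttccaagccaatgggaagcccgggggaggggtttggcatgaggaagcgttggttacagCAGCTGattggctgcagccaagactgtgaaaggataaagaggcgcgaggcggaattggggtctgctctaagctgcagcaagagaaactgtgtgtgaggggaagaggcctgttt
NHLH1 (chr1:160366821-160367120, plus strand): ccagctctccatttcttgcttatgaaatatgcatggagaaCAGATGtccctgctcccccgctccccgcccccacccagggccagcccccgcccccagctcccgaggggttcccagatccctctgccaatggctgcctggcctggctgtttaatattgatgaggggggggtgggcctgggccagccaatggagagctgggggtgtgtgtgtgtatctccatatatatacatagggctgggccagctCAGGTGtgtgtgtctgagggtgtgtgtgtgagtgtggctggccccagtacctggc
PAX4 (chr7:127618093-127618392, minus strand): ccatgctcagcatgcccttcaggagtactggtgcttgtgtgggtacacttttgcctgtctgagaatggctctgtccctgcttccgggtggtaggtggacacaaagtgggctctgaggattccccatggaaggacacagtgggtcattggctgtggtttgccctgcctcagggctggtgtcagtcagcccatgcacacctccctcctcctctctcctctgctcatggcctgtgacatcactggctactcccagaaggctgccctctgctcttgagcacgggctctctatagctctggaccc
NEUROD4 (chr12:55019724-55020023, plus strand): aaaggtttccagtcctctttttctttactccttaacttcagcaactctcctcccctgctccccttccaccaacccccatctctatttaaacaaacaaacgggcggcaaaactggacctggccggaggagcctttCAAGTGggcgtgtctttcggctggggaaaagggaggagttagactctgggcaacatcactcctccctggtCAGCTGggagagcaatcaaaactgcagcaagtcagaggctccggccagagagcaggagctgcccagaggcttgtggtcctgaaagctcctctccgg
The same E-box core, CAGCTG, stands at -150 from the start in NEUROG3, at -158 in HES6, at -221 and -63 in SOX4 and at -46 in NEUROD4. NEUROD4 also holds CAAGTG at -116, and NHLH1 holds CAGATG at -210 and CAGGTG at -5. PAX4 and NEUROD1 have no such match in their windows. CANNTG reads the same on both strands and occurs in 68.7% of 35116 windows of the same length, so its presence is common. Windows of INSM1, RFX6 and ST18 are not shown.

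PAX6 knockout cells carried the highest NEUROG3 RNA of the study. The gene (ENSG00000122859, chr10:69571698-69573238, minus strand) had 1000, 674 and 1108 CPM in PAX6 KO BFP libraries, against 107 and 163 CPM in WT BFP libraries. Every PAX6 KO library lay above both WT libraries by a wide margin. The log2 fold change was 2.78 ± 0.37 (SE), with an adjusted p of 3.84e-04 by edgeR's quasi-likelihood test over all genes. Leaving out each of the 5 libraries in turn gave adjusted p from 8.97e-04 to 0.0192. In the ISL1 OE arm NEUROG3 had 583, 527 and 1133 CPM in PAX6 KO libraries, against 112.8 and 91.6 CPM in WT libraries, again without overlap. That difference was 2.87 ± 0.37 (adjusted p 3.18e-04, edgeR quasi-likelihood), and 2.45 (adjusted p 2.79e-05) without the 2 libraries that stand apart. A fit on those 2 groups alone gave 2.92 with an adjusted p of 0.122. The libraries were read on 2 sets of lanes. With the lane set as a term the difference between BFP arms was 2.76 (adjusted p 3.22e-04), and among libraries of lanes 1 to 4, where WT BFP has 1 library, it was 2.45 (adjusted p 0.102).

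**Figure D1:**
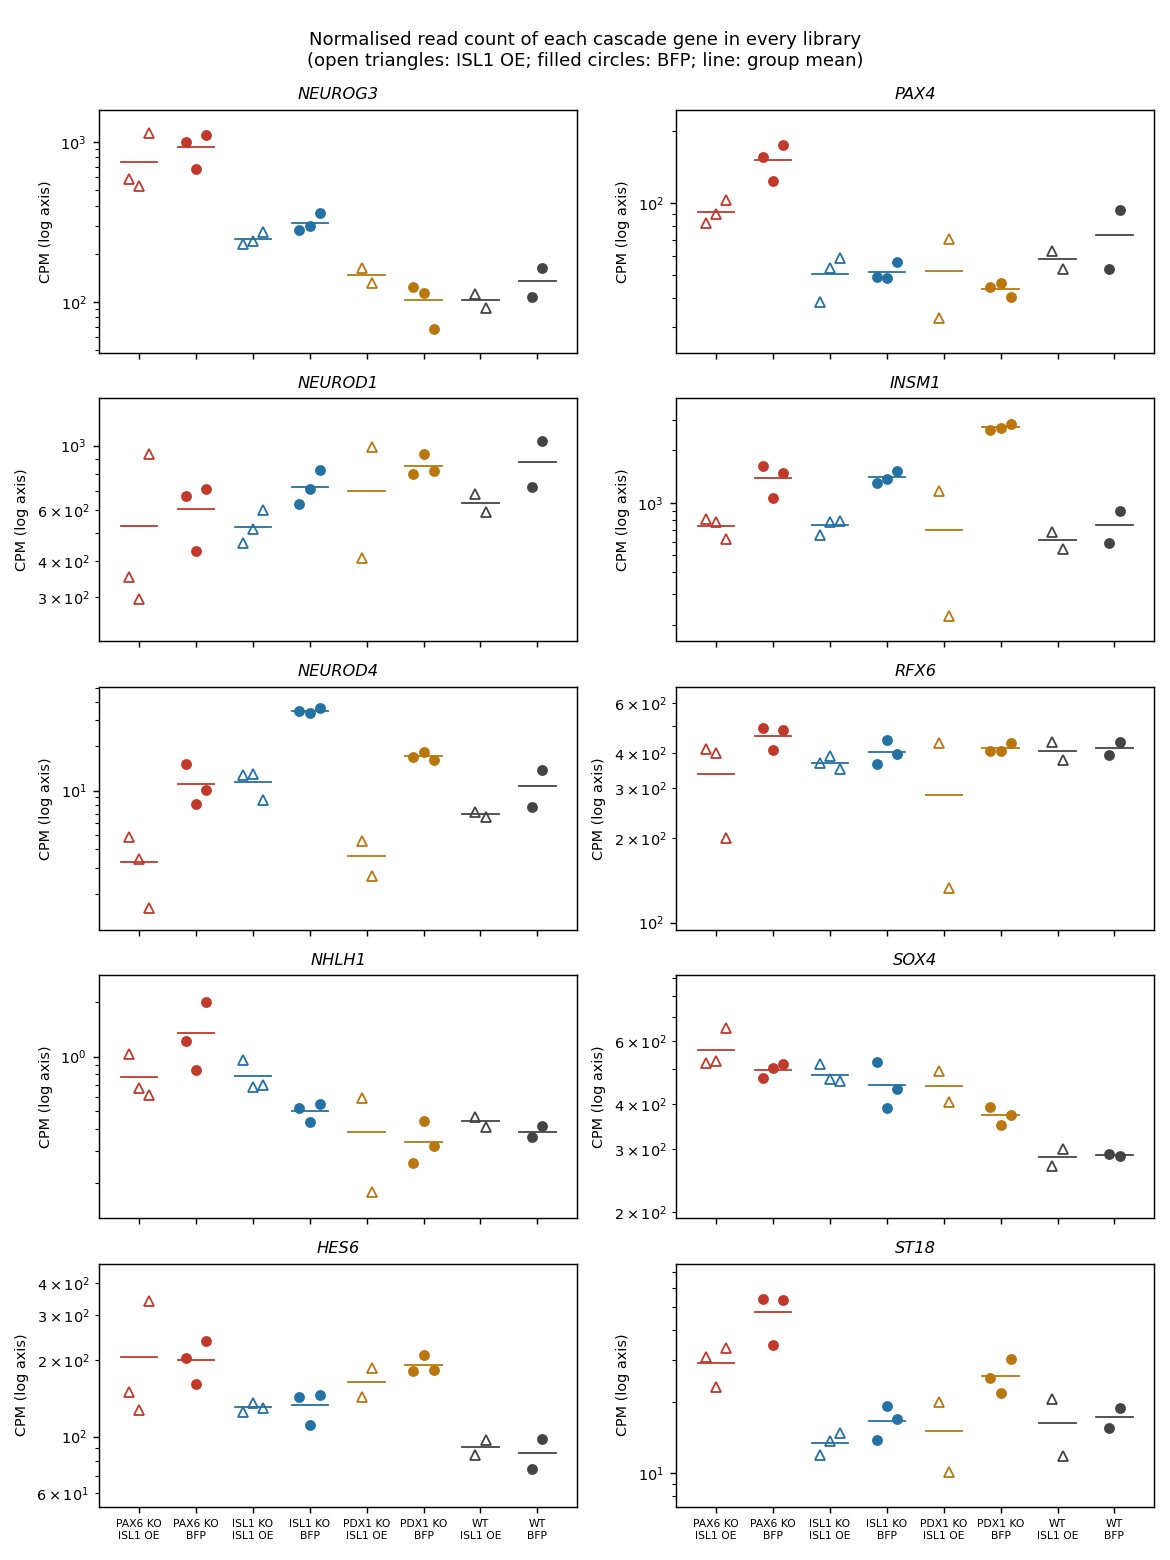
Level of each member in every library, in CPM on a log axis, 1 panel per gene, with each group's ISL1 OE libraries left of its BFP libraries and short lines at the group means. NEUROG3 is highest in both PAX6 KO groups, with 527 CPM in the lowest library, above the 359 CPM of the highest ISL1 KO library.

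Of the 10 members, 6 were higher in PAX6 KO BFP than in WT BFP cells and 0 were lower, in a comparison in which 6.65% of all tested genes were called and 2.41% were called higher. The median log2 fold change of the 10 was 0.98, against 0.004 over all genes. Beside NEUROG3 these were 2 further bHLH genes, NHLH1 and HES6, the paired-homeodomain gene PAX4, and SOX4 and ST18. ST18 had 54.1, 34.5 and 53.3 CPM in PAX6 KO BFP libraries, against 15.5 and 18.8 CPM in WT BFP libraries, with all PAX6 KO libraries higher (1.46 ± 0.32, adjusted p 0.0126, edgeR quasi-likelihood). SOX4 had 474, 504 and 517 CPM in PAX6 KO BFP libraries, against 291 and 286 CPM in WT BFP libraries. Its libraries were tight within each group and did not overlap, and the difference was 0.79 ± 0.18 (adjusted p 0.0149, edgeR quasi-likelihood). HES6 had 203, 161 and 237 CPM in PAX6 KO BFP libraries, against 74.4 and 98.0 CPM in WT BFP libraries, also without overlap (1.22 ± 0.33, adjusted p 0.0358, edgeR quasi-likelihood).

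PAX4, which in mice restrains alpha cell formation, had 155, 123.7 and 175 CPM in PAX6 KO BFP libraries, against 52.8 and 93.4 CPM in WT BFP libraries. No PAX6 KO library fell as low as the higher WT one, and the difference was 1.05 ± 0.30 (adjusted p 0.0474, edgeR quasi-likelihood). NHLH1, a bHLH gene best known from developing neurons, stayed low in all samples: it had 1.22, 0.841 and 2.01 CPM in PAX6 KO BFP libraries, from 66, 52 and 120 counts, against 0.357 and 0.412 CPM in WT BFP libraries, from 18 and 15 counts. Its groups did not overlap (1.82 ± 0.48, adjusted p 0.0327, edgeR quasi-likelihood). These 5 calls rest on few libraries. The SOX4 call was lost without PAX6 KO BFP replicate 3 (adjusted p 0.0551), WT BFP replicate 1 (0.123) or WT BFP replicate 3 (0.134), and the ST18 call without PAX6 KO BFP replicate 1 (0.0512), WT BFP replicate 1 (0.144) or WT BFP replicate 3 (0.0832). PAX4 was lost without any 1 of the 5 libraries (0.0530 to 0.436). HES6 was lost without PAX6 KO BFP replicates 1 or 3 (0.0925 and 0.120) or WT BFP replicates 1 or 3 (0.307 and 0.147), and NHLH1 likewise (0.0705, 0.134, 0.235 and 0.176). With replicates paired within genotype, the adjusted p of NHLH1 was 0.0543 and that of PAX4 was 0.0704.

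The other 4 members did not pass the test in PAX6 KO BFP cells. INSM1 had 1626, 1074 and 1478 CPM in PAX6 KO BFP libraries, against 587 and 898 CPM in WT BFP libraries. The groups do not overlap, but the fold change of 0.91 ± 0.43 had an adjusted p of 0.239 (edgeR quasi-likelihood); it was 0.92 with an adjusted p of 0.00114 when the 2 libraries that stand apart, which are in neither group but enter the estimate of spread, were left out, a fit that called 28.8% of all genes. NEUROD1, which maintains the endocrine state after NEUROG3 has gone, had 672, 435 and 707 CPM in PAX6 KO BFP libraries, against 721 and 1040 CPM in WT BFP libraries (-0.54 ± 0.41, adjusted p 0.524). All 3 knockout libraries lay below both WT libraries. RFX6 (0.15 ± 0.35, adjusted p 0.884) and NEUROD4 (0.04, adjusted p 0.971) had fold changes near 0.

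Of the members, 2 were higher in PAX6 KO than in WT cells in the ISL1 OE arm, NEUROG3 and SOX4, where 4.26% of all genes were called and 1.38% were called higher. SOX4 had 522, 529 and 654 CPM in PAX6 KO ISL1 OE libraries, against 269 and 300 CPM in WT ISL1 OE libraries. The groups were well apart (1.0 ± 0.18, adjusted p 0.00430, edgeR quasi-likelihood), though the call was lost without WT ISL1 OE replicate 1 (0.101). HES6 had 149, 127 and 340 CPM in PAX6 KO ISL1 OE libraries, against 85.0 and 97.3 CPM in WT ISL1 OE libraries. It missed the threshold (1.17, adjusted p 0.0545) and passed it with replicates paired within genotype (1.04, adjusted p 0.0298), without PAX6 KO ISL1 OE replicate 1 (0.0340) and without replicate 2 (0.0162). Without the 2 libraries that stand apart, where 14.5% of all genes were called, 4 members were called, HES6 and NEUROD1 among them: HES6 was higher (0.61, adjusted p 0.0279) and NEUROD1 lower (-0.95, adjusted p 0.00729).

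ISL1 knockout cells also carried more NEUROG3 than WT cells, at a lower level than PAX6 knockout cells. NEUROG3 had 283, 297 and 359 CPM in ISL1 KO BFP libraries, against 107 and 163 CPM in WT BFP libraries. The groups did not overlap, and the difference was 1.21 ± 0.34 (adjusted p 0.0436, edgeR quasi-likelihood). In the ISL1 OE arm it had 228, 242 and 275 CPM in ISL1 KO libraries, against 112.8 and 91.6 CPM in WT libraries, again without overlap (1.28 ± 0.34, adjusted p 0.0443). Both calls stood close to the threshold: each was lost without any 1 of its 5 libraries (adjusted p 0.0775 to 0.367 between BFP arms, 0.0837 to 0.357 between ISL1 OE arms), while the fold change between BFP arms was 1.21 with an adjusted p of 0.00201 without the 2 libraries that stand apart, neither of which is in these groups, where 28.5% of all genes were called. Among libraries of lanes 1 to 4 it was 1.01 (adjusted p 0.547).

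Between the BFP arms 3 members were higher in ISL1 KO than in WT cells and 0 lower, where 6.53% of all genes were called and 2.05% were called higher. NEUROD4, a bHLH gene that follows NEUROG3 in the cascade, had 34.9, 33.8 and 36.2 CPM in ISL1 KO BFP libraries, against 7.74 and 13.9 CPM in WT BFP libraries. ISL1 KO BFP was the group with the highest NEUROD4 in the study, and the difference was 1.69 ± 0.40 (adjusted p 0.0173, edgeR quasi-likelihood). The call was lost without ISL1 KO BFP replicate 3 (0.0536) or WT BFP replicate 1 (0.214). SOX4 had 526, 389 and 440 CPM in ISL1 KO BFP libraries, against 291 and 286 CPM in WT BFP libraries, without overlap (0.65 ± 0.18, adjusted p 0.0384). That call was lost without ISL1 KO BFP replicates 1 or 3 (0.147 and 0.0946), without WT BFP replicates 1 or 3 (0.214 and 0.245) and with the lane set as a term (0.0535). INSM1 had 1308, 1372 and 1526 CPM in ISL1 KO BFP libraries, against 587 and 898 CPM in WT BFP libraries, a gap without overlap that did not pass the test (0.92 ± 0.43, adjusted p 0.234).

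In the ISL1 OE arm 2 members, NEUROG3 and SOX4, were higher in ISL1 KO than in WT cells, where 4.13% of all genes were called and 1.20% were called higher. SOX4 had 517, 469 and 464 CPM in ISL1 KO ISL1 OE libraries, against 269 and 300 CPM in WT ISL1 OE libraries. The lowest ISL1 KO library lay well above the higher WT one (0.77 ± 0.18, adjusted p 0.0222, edgeR quasi-likelihood), and the call was lost without any 1 of the 5 libraries (0.0563 to 0.245). Set against WT BFP cells instead, ISL1 KO ISL1 OE cells had 1 member called, where 8.08% of all genes were called and 2.78% were called higher. It was SOX4 (0.74 ± 0.18, adjusted p 0.0167), lost without ISL1 KO ISL1 OE replicate 1 (0.0601), WT BFP replicate 1 (0.103) or WT BFP replicate 3 (0.147). NEUROG3 differed there by 0.88 with an adjusted p of 0.119.

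PDX1 knockout cells differed from WT at other members. NEUROG3 had 124.5, 114 and 67.4 CPM in PDX1 KO BFP libraries, against 107 and 163 CPM in WT BFP libraries, with overlapping ranges and no call (-0.41 ± 0.33, adjusted p 0.510, edgeR quasi-likelihood). Of the 10 members 2 were higher and 0 lower, in the comparison with most calls among BFP arms, where 11.4% of all genes were called and 4.56% were called higher. INSM1 had 2615, 2700 and 2840 CPM in PDX1 KO BFP libraries, against 587 and 898 CPM in WT BFP libraries. This was the highest INSM1 level of any group (1.87 ± 0.45, adjusted p 0.0116), and the call was lost only without WT BFP replicate 1 among the 5 libraries (0.154). HES6 had 180, 209 and 183 CPM in PDX1 KO BFP libraries, against 74.4 and 98.0 CPM in WT BFP libraries. Its groups were far apart (1.14 ± 0.33, adjusted p 0.0326), yet the call was lost without any 1 of the 5 libraries (0.0576 to 0.305).

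PDX1 KO ISL1 OE cells had 0 members called against WT ISL1 OE cells, where 0.780% of all genes were called. There 3 members had an unadjusted p under 0.05 in edgeR, as did 3792 of all 22184 genes. DESeq2 called 1 member, SOX4. The 2 PDX1 KO ISL1 OE libraries were unlike each other. In replicate 4 the direction of SOX4 turned on the scale, with 406 CPM and 56.5 TPM. WT ISL1 OE libraries had 269 and 300 CPM, and 85.2 and 90.0 TPM. INSM1 had 1174 and 226 CPM in PDX1 KO ISL1 OE libraries, against 678 and 548 CPM in WT ISL1 OE libraries, so that the knockout libraries lay on either side of WT. Without the 2 libraries that stand apart, SOX4 (0.80, adjusted p 0.00184) and INSM1 (0.93, adjusted p 0.0175) were called higher, where 7.90% of all genes were called.

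**Figure D2:**
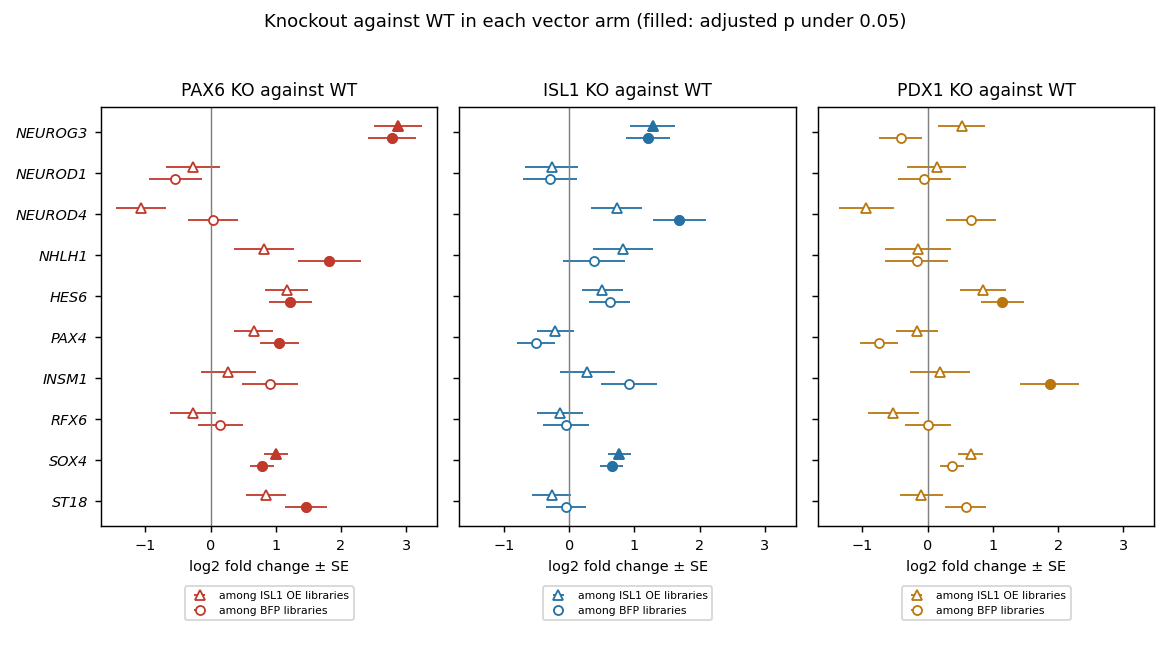
Log2 fold change of each member in PAX6 KO, ISL1 KO and PDX1 KO cells over WT, with standard errors, among ISL1 OE libraries (triangles) and BFP libraries (circles); filled symbols mark adjusted p under 0.05. NEUROG3 lies at 2.87 and 2.78 in PAX6 KO and at 1.28 and 1.21 in ISL1 KO cells, and at 0.52 and -0.41 in PDX1 KO cells. Behind the 0.52, replicate 4 of PDX1 KO ISL1 OE lay above the WT ISL1 OE libraries in CPM and below them in TPM.

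Set directly against each other, the knockouts ranked as PAX6 KO above ISL1 KO above PDX1 KO for NEUROG3 in the BFP arm. These 3 comparisons share their groups with each other and with the comparisons to WT. PAX6 KO BFP cells exceeded ISL1 KO BFP cells by 1.57 ± 0.30 (adjusted p 0.00702, edgeR quasi-likelihood) and PDX1 KO BFP cells by 3.18 ± 0.32 (adjusted p 3.23e-05). ISL1 KO BFP cells exceeded PDX1 KO BFP cells by 1.62 ± 0.30 (adjusted p 0.00424). Each of these 3 NEUROG3 calls was kept when any 1 of the 6 libraries was left out, and the libraries of the 3 groups did not overlap. Among libraries of lanes 1 to 4 the 3 differences were 1.44 (adjusted p 0.183), 2.90 (0.0143) and 1.46 (0.161). PDX1 KO BFP and WT BFP libraries, the last neighbours in the order, overlapped.

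Beside NEUROG3, PAX4 and ST18 were higher in PAX6 KO BFP than in ISL1 KO BFP cells and NEUROD4 was lower, so that 4 members were called where 2.78% of all genes were. PAX4 had 155, 123.7 and 175 CPM in PAX6 KO BFP libraries, against 49.0, 48.4 and 56.6 CPM in ISL1 KO BFP libraries. Every PAX6 KO library was more than double the highest ISL1 KO library (1.56 ± 0.27, adjusted p 0.00304, edgeR quasi-likelihood). ST18 had 54.1, 34.5 and 53.3 CPM in PAX6 KO BFP libraries, against 13.8, 19.1 and 17 CPM in ISL1 KO BFP libraries (1.51 ± 0.28, adjusted p 0.00513). NEUROD4 went the other way, with 15.3, 8.12 and 10.1 CPM in PAX6 KO BFP libraries, against 34.9, 33.8 and 36.2 CPM in ISL1 KO BFP libraries (-1.65 ± 0.34, adjusted p 0.0122). The PAX4 and ST18 calls were kept without any 1 library, and that of NEUROD4 was lost without PAX6 KO BFP replicate 2 (0.0640) or replicate 3 (0.0729). Thus NEUROG3 was higher in both knockouts than in WT. In the BFP arm NEUROD4 was high in ISL1 KO cells, and PAX4 and ST18 in PAX6 KO cells. In the ISL1 OE arm NEUROD4 was not called in ISL1 KO against WT cells (0.73, adjusted p 0.348, edgeR quasi-likelihood). Nor were PAX4 (0.66, 0.252) and ST18 (0.85, 0.150) called there in PAX6 KO against WT cells.

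Against PDX1 KO BFP cells, PAX6 KO BFP cells had 3 members higher and 0 lower, where 3.62% of all genes were called and 1.70% were called higher. These were NEUROG3, PAX4 (1.79 ± 0.27, adjusted p 9.04e-04, kept without any 1 library) and NHLH1 (1.99 ± 0.42, adjusted p 0.0111). NHLH1 had 14, 28 and 16 counts in PDX1 KO BFP libraries, and its call was lost without PAX6 KO BFP replicate 3 (0.0655), PDX1 KO BFP replicate 1 (0.0602) or PDX1 KO BFP replicate 3 (0.0635). Between ISL1 KO BFP and PDX1 KO BFP cells NEUROG3 was the 1 member called, where 5.71% of all genes were called and 3.32% were called higher.

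The ISL1 vector was tested within each genotype, and NEUROD4 had the most negative fold change of the members in each of the 4 genotypes. In PAX6 KO cells NEUROD4 had 4.84, 3.44 and 1.60 CPM in ISL1 OE libraries, against 15.3, 8.12 and 10.1 CPM in BFP libraries. It was the 1 member called there, where 0.415% of all genes were called and 0.212% were called lower. The difference was -1.76 ± 0.35 (adjusted p 0.0340, edgeR quasi-likelihood), and -1.84 (adjusted p 0.0410) with replicates paired. The call was lost without PAX6 KO BFP replicates 1 or 3 (0.210 and 0.129) or PAX6 KO ISL1 OE replicates 2 or 3 (0.0721 and 0.0671), in a fit on the 2 groups alone (0.590) and under library-size scaling (0.0988). Without the 2 libraries that stand apart, 4 members were lower: NEUROD4 (-1.42, adjusted p 0.00904), NEUROD1 (-0.88, 0.0180), INSM1 (-0.80, 0.0165) and PAX4 (-0.81, 0.0357). In that fit 6.02% of all genes were called and 4.18% were called lower.

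In ISL1 KO cells NEUROD4 had 12.7, 13 and 8.66 CPM in ISL1 OE libraries, against 34.9, 33.8 and 36.2 CPM in BFP libraries. The groups lay far apart, but the adjusted p was 0.0504 for a difference of -1.61 ± 0.34 (edgeR quasi-likelihood), so 0 members were called, where 0.424% of all genes were. Here 2 members had an unadjusted p under 0.05 in edgeR, as did 1758 of all 22184 genes. DESeq2 called 1 member, NEUROD4. With replicates paired within genotype NEUROD4 was called (-1.63, adjusted p 0.0441), and so it was with DESeq2 size factors (0.0446) and without the low-count filter (0.0401). INSM1 had 658, 782 and 791 CPM in ISL1 KO ISL1 OE libraries, against 1308, 1372 and 1526 CPM in ISL1 KO BFP libraries. The 2 groups of INSM1 values did not overlap, and the difference of -0.91 had an adjusted p of 0.476 over all 21 libraries and 0.00255 (-0.90) without the 2 libraries that stand apart, a fit that called 5.92% of all genes.

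In PDX1 KO cells 2 members were lower in the ISL1 OE arm and 0 higher, where 14.4% of all genes were called and 5.34% were called lower. That share turned on which of the 2 ISL1 OE libraries was kept: it was 46.8% without PDX1 KO ISL1 OE replicate 2 and 3.10% without replicate 4. INSM1 had 1174 and 226 CPM in PDX1 KO ISL1 OE libraries, against 2615, 2700 and 2840 CPM in PDX1 KO BFP libraries. Both ISL1 OE libraries were below all BFP libraries, though they lay far from each other (-1.96 ± 0.45, adjusted p 0.00995, edgeR quasi-likelihood). NEUROD4 had 4.52 and 2.64 CPM in PDX1 KO ISL1 OE libraries, against 17, 18.3 and 16.1 CPM in PDX1 KO BFP libraries, again without overlap (-2.25 ± 0.41, adjusted p 0.00294). INSM1 was called without any 1 of the 5 libraries, with fold changes from -3.51 to -1.18; NEUROD4 lost its call without PDX1 KO ISL1 OE replicate 4 (0.0551). Without replicate 2, replicate 4 was the 1 library left in its group. The fold change was then 0.77 for PAX4, -1.57 for RFX6 and -1.26 for ST18. The direction of PAX4 turned on the scale. Replicate 4 had 70.5 CPM and 28.5 TPM of PAX4, against 40.3 to 46.1 CPM and 41.0 to 43.5 TPM in PDX1 KO BFP libraries. In a fit on the 2 groups alone neither INSM1 (0.305) nor NEUROD4 (0.229) passed.

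WT cells had 0 members called between the vector arms, where 0.0361% of all genes were called. In edgeR 0 members had an unadjusted p under 0.05, against 844 of all 22184 genes. DESeq2 called 0 members. NEUROD4 had 7.20 and 6.60 CPM in WT ISL1 OE libraries, against 7.74 and 13.9 CPM in WT BFP libraries, a difference of -0.65. NEUROG3 had 112.8 and 91.6 CPM in WT ISL1 OE libraries, against 107 and 163 CPM in WT BFP libraries, with overlapping values. Its difference between vector arms was not called in any genotype: it was -0.31 in PAX6 KO, -0.33 in ISL1 KO, 0.53 in PDX1 KO and -0.40 in WT cells. In PDX1 KO ISL1 OE replicate 4 the direction of NEUROG3 turned on the scale, with 130.5 CPM and 61.3 TPM. PDX1 KO BFP libraries had 67.4 to 124.5 CPM and 80.2 to 146 TPM.

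Whether the vector acted differently in a knockout than in WT was tested as an interaction. No member passed in edgeR. The differences ranged from -1.11 to 0.28 for PAX6 KO (lowest adjusted p 0.889), from -0.96 to 0.45 for ISL1 KO (lowest 1.0) and from -1.68 to 0.93 for PDX1 KO (lowest 0.170), where 0%, 0.00451% and 1.37% of all genes were called. In PDX1 KO 2 members had an unadjusted p under 0.05 in edgeR, as did 3731 of all 22184 genes tested. In PAX6 KO and ISL1 KO 0 members did, against 750 and 651 of all genes. DESeq2 called 0 members in each. Without the 2 libraries that stand apart no member passed either, with NEUROD4 at -0.79 (adjusted p 0.513) for PAX6 KO, -0.96 (0.384) for ISL1 KO and -1.26 (0.164) for PDX1 KO. Leaving out PDX1 KO ISL1 OE replicate 2 put replicate 4 alone in its group and moved several differences for PDX1 KO. INSM1 was then at -3.26, NEUROD4 at -2.0, RFX6 at -1.57, ST18 at -1.20 and PAX4 at 1.08. For PAX4 this holds in CPM, while in TPM replicate 4 lay below the PDX1 KO BFP libraries. In the fit of all libraries, the lower NEUROD4 in the ISL1 OE arms of the knockouts was thus not shown to differ from the vector's effect in WT.

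**Figure D3:**
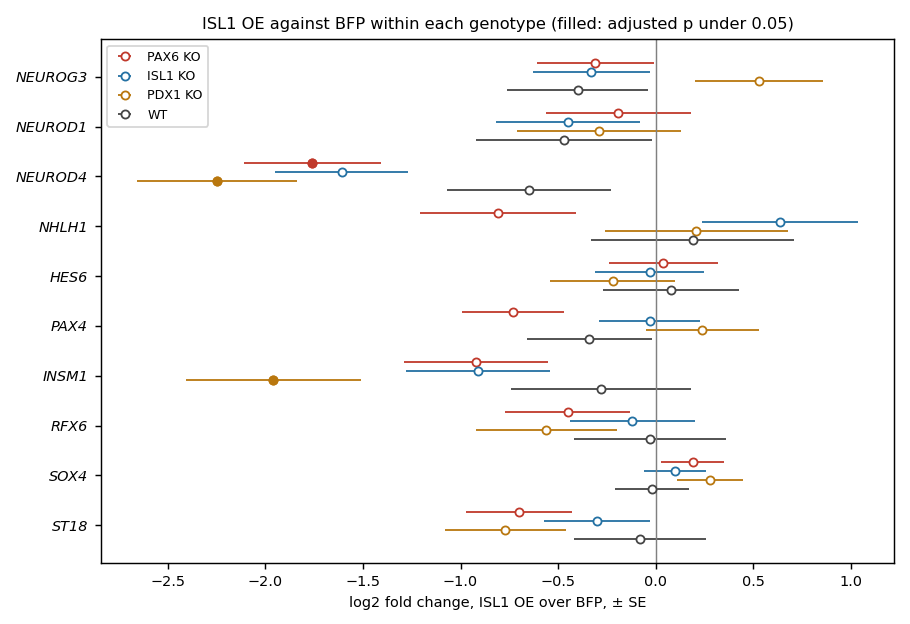
Log2 fold change of each member in ISL1 OE over BFP cells within PAX6 KO, ISL1 KO, PDX1 KO and WT cells, with standard errors; filled symbols mark adjusted p under 0.05. NEUROD4 lies at -1.76, -1.61 and -2.25 in the knockouts and at -0.65 in WT cells, and INSM1 reaches -1.96 in PDX1 KO cells.

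NEUROD1 and RFX6 were not called in any of the 14 comparisons. RFX6 had 490, 411 and 481 CPM in PAX6 KO BFP, 364, 445 and 397 CPM in ISL1 KO BFP, 407, 407 and 434 CPM in PDX1 KO BFP and 395 and 438 CPM in WT BFP libraries. Its 2 lowest libraries were those that stand apart, with 199 CPM in PAX6 KO ISL1 OE replicate 3 and 132 CPM in PDX1 KO ISL1 OE replicate 4. NEUROD1 had 353, 297 and 935 CPM in PAX6 KO ISL1 OE libraries, and 410 and 989 CPM in PDX1 KO ISL1 OE libraries. In CPM the same 2 libraries were thus the highest of their groups. In TPM this held in PAX6 KO ISL1 OE cells (345, 295 and 479 TPM) but not in PDX1 KO ISL1 OE cells (362 and 337 TPM). Without those 2 libraries, which leaves replicate 2 alone in PDX1 KO ISL1 OE, NEUROD1 differed by -1.03 between the vector arms of PDX1 KO cells. It was also lower in the ISL1 OE arm of PAX6 KO cells, as given above.

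Per transcript length, in TPM, which scales each gene by the length of its RNA, the order of the members in WT BFP cells was led by NEUROD1 with 514 and 711 TPM, followed by INSM1 with 299 and 433 TPM. RFX6 (165 and 173 TPM) and NEUROG3 (106 and 152 TPM) came next, then HES6 (83.4 and 107 TPM), SOX4 (84.2 and 78.3 TPM) and PAX4 (44.1 and 73.5 TPM), neighbours that overlapped or nearly so. ST18 had 8.59 and 9.86 TPM, NEUROD4 2.81 and 4.74 TPM, and NHLH1 0.205 and 0.214 TPM. In PAX6 KO BFP cells NEUROG3 headed the list, with 1281, 886 and 1317 TPM, above INSM1 with 1078, 731 and 910 TPM and NEUROD1 with 626, 414 and 608 TPM. The scale mattered in the groups with a library that stands apart: NEUROG3 averaged 772 ± 41.7 TPM and 748 ± 335 CPM in PAX6 KO ISL1 OE cells (SD, n = 3), and 131 ± 98.0 TPM and 147 ± 23.1 CPM in PDX1 KO ISL1 OE cells (SD, n = 2).

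**Figure D4:**
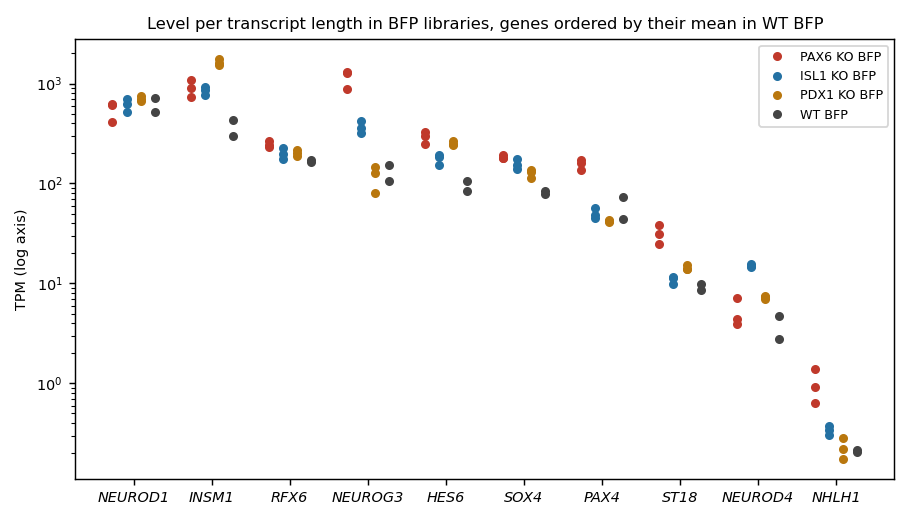
Level of each member per transcript length, in TPM on a log axis, in the BFP libraries of each genotype, with PAX6 KO, ISL1 KO and PDX1 KO left of WT. NEUROD1 leads in WT cells with 514 and 711 TPM, and NEUROG3 leads in PAX6 KO cells with 886 to 1317 TPM.

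The transcript table lists 1 transcript each for NEUROG3, NEUROD4, NHLH1, INSM1 and SOX4, so their levels refer to 1 model. For NEUROD1 and RFX6 a single coding model held 92.6% to 95.8% and 96.1% to 98.6% of the gene's TPM over the libraries. HES6 was split mainly between HES6-201 (43.3% to 61.7% over the libraries) and HES6-203 (22.8% to 41.8%). PAX4 was spread over 6 models: PAX4-208 held 29.2% to 52.7% over the libraries, and PAX4-203 2.22% to 30.5%. The 2 PDX1 KO ISL1 OE libraries had 2.99% and 30.5% of the gene's TPM in PAX4-203, while the group mean was 14.8% in WT ISL1 OE cells and 12.3% in WT BFP cells. ST18 was unlike the rest. Of its 24 models 21 are not annotated as protein coding. These held 75.7% to 100% of its TPM by library, with a median of 89.0%. In TPM the ST18 level thus reports mostly RNA assigned to such models. The ST18 tests above used counts, which are not scaled by length, and were not split by model. NEUROD1 lies within CERKL on the same strand (17.1 to 66.2 CPM), so their reads may be shared, and the library kit does not mark strand. Antisense genes at HES6, SOX4 and ST18 had at most 0.215 CPM.

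A list of 26 further genes of the endocrine cascade was chosen with earlier results of these data known. In PAX6 KO BFP against WT BFP cells 2 were higher and 1 lower, with a median log2 fold change of 0.61. There 6.65% of all genes were called and 2.41% were called higher. NKX2-2, a homeodomain factor of endocrine progenitors and beta cells, averaged 94.0 ± 24.2 CPM in PAX6 KO BFP cells and 25.8 ± 9.37 CPM in WT BFP cells (SD, n = 3 and 2; 1.86 ± 0.44, adjusted p 0.0186 by edgeR's quasi-likelihood test). SCRT1, a zinc finger repressor, was near the limit of detection, with 0.225 ± 0.0941 CPM in PAX6 KO BFP cells and 0.0435 ± 0.0227 CPM in WT BFP cells (adjusted p 0.0491, edgeR). BTG2, an antiproliferative gene, was lower (-1.72 ± 0.50, adjusted p 0.0497). In ISL1 KO BFP cells 3 were higher and 3 lower, with a median of 0.19, where 6.53% of all genes were called. MNX1 (1.80 ± 0.36, adjusted p 0.00603) and NKX6-1 (1.83 ± 0.40, 0.0110), both of beta cells and motor neurons, were higher, and ISL1 itself was lower (-2.51 ± 0.38, 8.31e-04).

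PDX1 KO BFP cells had the most of these genes called, 10 higher and 4 lower of 26, with a median of 0.66. Their comparison with WT BFP cells also had more calls over all genes, with 11.4% called and 4.56% called higher. NEUROG3 was not called there. MNX1 averaged 301 ± 50.2 CPM in PDX1 KO BFP cells and 64.6 ± 19.5 CPM in WT BFP cells (SD, n = 3 and 2; 2.22 ± 0.37, adjusted p 0.00126 by edgeR). NKX6-1 averaged 295 ± 30.8 CPM in PDX1 KO BFP cells and 57.3 ± 22.1 CPM in WT BFP cells (2.36 ± 0.41, adjusted p 0.00170 by edgeR). MYT1, a zinc finger factor of the family of ST18, was higher by 1.53 ± 0.31 (0.00452). In the ISL1 OE arm of PDX1 KO cells 8 of the 26 were lower and 1 higher than in its BFP arm. There 14.4% of all genes were called and 5.34% were called lower. NKX6-1 averaged 43.3 ± 32.9 CPM in PDX1 KO ISL1 OE cells and 295 ± 30.8 CPM in PDX1 KO BFP cells (SD, n = 2 and 3; -2.77, adjusted p 8.51e-04). Of the 26, NKX6-1 alone was called between the vector arms of PAX6 KO cells (-1.87, adjusted p 0.0248 by edgeR), where 0.415% of all genes were. In ISL1 KO and WT cells 0 were called by edgeR, where 0.424% and 0.0361% of all genes were.

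Of 11 bHLH partners and inhibitors, 2, 1 and 4 were called in PAX6 KO, ISL1 KO and PDX1 KO BFP cells against WT BFP cells, where 6.65%, 6.53% and 11.4% of all genes were. HEYL, a Notch-driven repressor, averaged 0.526 ± 0.0454 CPM in PAX6 KO BFP cells and 2.95 ± 0.323 CPM in WT BFP cells (SD, n = 3 and 2; -2.48 ± 0.44, adjusted p 0.00344 by edgeR), and ID3 59.2 ± 26.1 CPM in PAX6 KO BFP cells and 321 ± 33.3 CPM in WT BFP cells (-2.44 ± 0.66, 0.0349). These were the 2 called of 11 in PAX6 KO cells, both lower. In ISL1 KO BFP cells 1 was lower, ID4 (-1.16 ± 0.30, 0.0260), and HEYL was not (0.68, 0.420). In PDX1 KO BFP cells HEYL (-2.55 ± 0.45, 0.00174), ID3 (-2.48 ± 0.66, 0.0222) and ID2 (-1.63 ± 0.49, 0.0407) were lower and HEY1 was higher (1.18 ± 0.29, 0.0128). HES1, the repressor of NEUROG3 in progenitors, was not called in any of the 3 knockouts against WT in the BFP arm (-0.19 in PAX6 KO, 0.29 in ISL1 KO and -0.81 in PDX1 KO), nor were the E protein genes TCF3, TCF4 and TCF12. In the ISL1 OE arm of PDX1 KO cells 4 of the 11 were higher and 1 lower than in its BFP arm, where 14.4% of all genes were called, but the 2 libraries differed: ID3 had 69.1 CPM in one and 930 CPM in the other, against 48.7 to 71.5 CPM in PDX1 KO BFP libraries.

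Of 11 other proneural bHLH genes 7 passed the low-count filter. In PAX6 KO BFP cells, where 6.65% of all genes were called, 0 of them were higher and 1 was lower. It was BHLHA15, a factor of secretory cells (-1.75 ± 0.36, adjusted p 0.00873 by edgeR). In ISL1 KO BFP cells NEUROG1, a close relative of NEUROG3 known from sensory neurons, averaged 13.8 ± 4.15 CPM, against 1.28 ± 0.372 CPM in WT BFP cells (SD, n = 3 and 2; 3.44 ± 0.84, adjusted p 0.0209 by edgeR). BHLHA15 was lower there too (-1.83 ± 0.36, 0.00555). In PDX1 KO BFP cells BHLHA15 averaged 3.46 ± 0.532 CPM, against 21.7 ± 1.81 CPM in WT BFP cells (SD, n = 3 and 2; -2.65 ± 0.37, 4.20e-04).

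Markers of cell types moved with the knockouts too. Over all genes, 6.65%, 6.53% and 11.4% were called in PAX6 KO, ISL1 KO and PDX1 KO against WT in the BFP arm. The islet hormone genes INS, GCG, SST, PPY, GHRL and IAPP summed to 4119 to 5294 CPM in PAX6 KO BFP, 3454 to 4884 CPM in ISL1 KO BFP and 14296 to 18293 CPM in PDX1 KO BFP libraries, against 47374 to 58892 CPM in WT BFP libraries, with 4, 4 and 2 of 6 called lower and GHRL called higher in PAX6 KO cells. A list of 8 neuronal genes (among them POU4F1, ELAVL3, ELAVL4, STMN2 and TUBB3), some of which endocrine cells also express, summed to 545 to 863 CPM in PAX6 KO BFP, 515 to 686 CPM in ISL1 KO BFP and 740 to 892 CPM in PDX1 KO BFP libraries, against 344 to 509 CPM in WT BFP libraries. Of these, 4, 3 and 5 were called higher in the PAX6 KO, ISL1 KO and PDX1 KO cells and 0 lower. Enterochromaffin-like genes (TPH1, SLC18A1, LMX1A, DDC and FEV, the last also in the cascade list) summed to 1207 to 1903 CPM in PAX6 KO BFP, 2057 to 2744 CPM in ISL1 KO BFP and 3301 to 3813 CPM in PDX1 KO BFP libraries, against 782 to 907 CPM in WT BFP libraries, with 1, 4 and 5 of 5 called higher. Liver genes (ALB, AFP, TF, APOA1 and TTR) summed to 3115 to 4420 CPM over the 3 knockouts' BFP libraries, against 9782 to 10491 CPM in WT BFP libraries. General endocrine genes summed to 15000 to 25190 CPM in PAX6 KO BFP, 23390 to 32399 CPM in ISL1 KO BFP and 42259 to 45800 CPM in PDX1 KO BFP libraries, against 19964 to 24209 CPM in WT BFP libraries, with 0 of 6 called in edgeR. Duct and progenitor genes summed to 1356 to 1624 CPM in PAX6 KO BFP, 1130 to 1243 CPM in ISL1 KO BFP and 602 to 700 CPM in PDX1 KO BFP libraries, against 1301 to 1344 CPM in WT BFP libraries, with SPP1 called lower in each knockout and the other 6 not called. In PDX1 KO cells, where INSM1 and HES6 were called, the general endocrine sum was thus above WT and the duct and progenitor sum below it in every library. In the ISL1 OE arm the general endocrine sum was 13198 to 19645 CPM in ISL1 KO and 23091 to 23530 CPM in PDX1 KO. These and WT libraries (15742 to 18597 CPM) lay below their BFP libraries, while PAX6 KO libraries (10253 to 24900 CPM) overlapped theirs. The enterochromaffin-like sum lay below the BFP libraries in each genotype, with 1181 to 1243 CPM in PDX1 KO ISL1 OE libraries. The islet hormone sum was 11463 and 140221 CPM in the 2 PDX1 KO ISL1 OE libraries. The part of these cell types in the members' differences was not tested.

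Across the 21 libraries, the genes whose log2 CPM followed NEUROG3 most closely were C11orf87 (Pearson r = 0.928), AC092279.1 (0.908), VSTM2L (0.904), ELMOD1 (0.896) and FBXO32 (0.886), among 12957 genes. Among the most opposite were IFIH1 (-0.924), IL1R1 (-0.906), ST8SIA4 (-0.901) and PTGER3 (-0.884). C11orf87 spanned 50.2 to 78.4 CPM in PAX6 KO BFP, 18.2 to 23.9 CPM in ISL1 KO BFP and 5.64 to 8.18 CPM in PDX1 KO BFP libraries, against 17.8 to 23.5 CPM in WT BFP libraries. Of the other members, PAX4 (0.760, rank 32) and SOX4 (0.754, rank 35) followed NEUROG3 most, then ST18 (0.613) and HES6 (0.508), while RFX6 (0.023), INSM1 (-0.001), NEUROD4 (-0.174) and NEUROD1 (-0.282) did not. NHLH1 lay under the minimum mean level of 2 log2 CPM set for this ranking. These correlations describe libraries that share genotypes and depth, and carry no test.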

How the data were processed

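Per the labels' protocols, a Zymo Quick-RNA kit gave the RNA, and SMART-Seq v4 with KAPA EvoPrep the libraries. The deposited tables hold estimated counts and TPM per gene or transcript for each lane. The submitters' processing notes name STAR and GRCh38; the sources used here name no counting program. Identifiers were named with GENCODE 29 (34390 genes) and a gene name table (4202).

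Of 97 columns, 84 were used, 4 lanes for each of 21 libraries (lowest correlation between lanes 0.997). Another 12 columns, of 3 libraries matched to no sample, and 1 repeated column were not used. Estimated counts were summed and rounded; TPM was averaged over lanes. edgeR 4.0.16 (R 4.3.3) fitted 1 quasi-likelihood model of 8 group means after filterByExpr and TMM scaling, with Benjamini-Hochberg adjustment over 22184 genes and calls at adjusted p under 0.05. Standard errors are the fold change over the square root of F. Where 1 library was left in a group, it was assumed to vary like the other groups. The fit was also run on simulated data with less spread between libraries than these data have, and with no library that stands apart. That run does not show how the fit behaves on these data.

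Alternatives were DESeq2 1.42.0, limma 3.58.1 on log2(TPM + 0.5) or log2(TPM + 0.1), other scalings and filters, a replicate block, lane set, and each library left out. Same-numbered libraries deviated together in ISL1 KO (correlations 0.522, 0.399 and 0.732) and PAX6 KO (0.28, 0.51 and 0.601), so numbers were taken to pair them there. PDX1 KO and WT share 1 number each, with correlations of -0.491 and -0.0197. Across genotypes, same-numbered libraries had correlations from -0.707 to 0.68. Libraries with different numbers were not compared, so the pairing is an assumption. Genes named were the members, up to 4 per list and comparison by adjusted p, and the 5 most like and 5 most opposite to NEUROG3; HES1, the E protein genes, HEYL in ISL1 KO and ID3 by library were added after their values were seen. A few genes under this rule are not reported here. The members and lists were chosen with earlier results of these data known. The labels name no unique molecular identifiers, so reads are not independent molecules.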

Additional observations from a re-analysis of the deposited data

How the results depend on the processing

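Of the 27 member results called over the 14 comparisons of 2 groups, 9 stayed called whichever single library was left out, and 1 stayed called under every alternative tried. Leaving out 1 library gave, for the number of members called, 1 to 5 in PAX6 KO BFP, 0 to 2 in ISL1 KO BFP and 0 to 1 in PDX1 KO BFP cells against WT BFP. It gave 1 to 3 (PAX6 KO), 0 to 0 (ISL1 KO) and 0 to 4 (PDX1 KO) against WT in the ISL1 OE arm. Between vector arms it gave 0 to 1 (PAX6 KO), 0 to 0 (ISL1 KO), 1 to 5 (PDX1 KO) and 0 to 0 (WT), and for the interactions 0 to 0, 0 to 0 and 0 to 5. It gave 3 to 4 for PAX6 KO against ISL1 KO, 2 to 3 for PAX6 KO against PDX1 KO, 1 to 1 for ISL1 KO against PDX1 KO and 0 to 1 for ISL1 KO ISL1 OE against WT BFP. INSM1 changed sign in 1 case: PDX1 KO ISL1 OE over WT ISL1 OE was 0.19 (adjusted p 0.834), -1.37 (0.00469) without PDX1 KO ISL1 OE replicate 2 and 0.95 without replicate 4.

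The ranges above are given without the share of all genes called, which moved with the library left out. Some of these fits leave 1 library in a group. Counts of members called that moved by more than 1.5 times were as follows. The share of all genes called moved too: in ISL1 KO BFP, PAX6 KO BFP and PDX1 KO BFP against WT BFP it was 6.53%, 6.65% and 11.4% over all libraries, 28.2%, 24.3% and 33.3% in a fit on only the groups compared, and 28.5%, 28.8% and 33.3% without both libraries that stand apart. Between vector arms of ISL1 KO, PAX6 KO and PDX1 KO it was 7.31%, 0% and 0% on the groups compared and 5.92%, 6.02% and 11.2% without both libraries. On the groups compared it was 27.7% and 0.174% for ISL1 KO and PAX6 KO against WT in the ISL1 OE arm, 15.5% and 26.3% for PAX6 KO and ISL1 KO against PDX1 KO, and 37.7% for ISL1 KO ISL1 OE against WT BFP; without both libraries the last 3 were 20.1%, 26.1% and 33.5%. A fit on only the groups compared called 5 in ISL1 KO BFP and 5 in PDX1 KO BFP cells against WT BFP, 2 between vector arms of ISL1 KO and 0 of PAX6 KO and 0 of PDX1 KO cells, 4 in ISL1 KO and 0 in PAX6 KO cells against WT in the ISL1 OE arm, 6 for PAX6 KO and 5 for ISL1 KO against PDX1 KO, and 4 for ISL1 KO ISL1 OE against WT BFP. Without both libraries that stand apart the counts were 5 in ISL1 KO BFP and 4 in PDX1 KO BFP against WT BFP, 2, 4 and 4 between vector arms of ISL1 KO, PAX6 KO and PDX1 KO, 4 (PAX6 KO) and 2 (PDX1 KO) against WT within the ISL1 OE arm, 6 and 6 against PDX1 KO BFP, and 4 for ISL1 KO ISL1 OE against WT BFP. Libraries of lanes 1 to 4 alone were chosen after seeing the data, and this set has fewer libraries. With 1 WT BFP library left there, the calls against WT BFP were not kept. The set called 0 and 1 members between vector arms of PAX6 KO and PDX1 KO. Against WT in the ISL1 OE arm it called 0 in ISL1 KO and 1 in PAX6 KO. It called 0 for PAX6 KO against ISL1 KO, and 1 and 0 against PDX1 KO. The share of all genes called in this set is not given, so these counts describe the calls alone.

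The replicate block within ISL1 KO and PAX6 KO cells called 1 member between vector arms of ISL1 KO cells and changed no other count by over 1.5 times; the calls it changed are given above. A block over all genotypes (chosen after seeing the data) called 2, 3 and 0 between vector arms of ISL1 KO, PAX6 KO and PDX1 KO, 1 in PDX1 KO against WT in the ISL1 OE arm, 5 and 3 against PDX1 KO BFP, and 2 for ISL1 KO ISL1 OE against WT BFP. Between vector arms of ISL1 KO, DESeq2 size factors, no low-count filter and DESeq2 each called 1. No filter also gave 0 for ISL1 KO against WT in the ISL1 OE arm. DESeq2 gave 1 for PDX1 KO against WT in that arm and 5 and 2 for PAX6 KO and ISL1 KO against PDX1 KO. Library size alone gave 0 between vector arms of PAX6 KO cells. TPM with limma gave, at either pseudocount, 0 there, 4 between vector arms of PDX1 KO, 1 for ISL1 KO against WT in the ISL1 OE arm and 3 for ISL1 KO ISL1 OE against WT BFP. These counts are given without the share of all genes called in the same fits, so they describe the calls alone. The cause of these differences was not tested.

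Library-size scaling shifted the median of all genes by -0.10 to 0.24 over the comparisons; relative to it NEUROG3 was higher by 2.77 in PAX6 KO and 1.19 in ISL1 KO BFP cells. With 2 WT BFP libraries, most comparisons with WT rest on each of them.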
